A study of Mus musculus with 6 samples.

Results

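Dlx1, Dlx2, Dlx5, Dlx6, Gsx2, Nkx2-1, Lhx6, Lhx8, Gad1 and Gad2 are genes of the ventral telencephalon and of the GABAergic neurons born there. These 10 genes were taken by name from the count tables, which list 51733 gene symbols, and all 10 passed the filter on low values that left 21329 genes for testing. RNA had been sequenced from Sox2-positive neural progenitor cells (NPCs) sorted from neural tubes of C57BL/6 mouse embryos at embryonic day E13.5. There were 3 wildtype libraries, called here control A, B and C, and 3 YBX1KO libraries, called Ybx1-KO D, E and F. The Ybx1-KO embryos were homozygous for a germline null allele of Ybx1 (Ybx1tm1Ley), and the study describes the controls as siblings. Embryos of both groups carried a Sox2-GFP reporter, by which the cells were sorted. Sox2 is expressed along the whole neural tube, so the sort itself did not select for the forebrain. It is not stated that each library came from a separate embryo, and p-values then measure only the spread between these libraries. In such bulk RNA, fewer cells of a type and less RNA per cell cannot be told apart.

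The ventral telencephalon forms the ganglionic eminences, swellings of the embryonic forebrain wall that give rise to the striatum, the globus pallidus and the inhibitory interneurons of the cortex. Gsx2 patterns the progenitors of the lateral eminence, and Nkx2-1 those of the medial eminence and preoptic area. The homeobox genes Dlx1 and Dlx2 switch on as progenitors commit to the GABAergic fate, and Dlx5 and Dlx6 follow in the same lineage. Downstream of Nkx2-1, Lhx6 marks migrating cortical interneurons and Lhx8 the cholinergic neurons of the basal forebrain. Gad1 and Gad2 encode the enzymes GAD67 and GAD65, which make GABA from glutamate, and are used by inhibitory neurons throughout the brain and spinal cord. The protein Ybx1 is named after the Y-box, a DNA element built around an inverted CCAAT sequence.

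In GENCODE M21 on GRCm38, Dlx1 (chr2:71528113-71533981, plus strand) and Dlx2 (chr2:71543408-71546754, minus strand) are neighbours that face each other, and so are Dlx6 (chr6:6863334-6868568, plus strand) and Dlx5 (chr6:6877805-6882085, minus strand). Lhx6 (chr2:36081953-36105408, minus strand), Gad1 (chr2:70553072-70602014, plus strand) and Gad2 (chr2:22622205-22693874, plus strand) lie on the same chromosome as Dlx1. Lhx8 is at chr3:154306294-154330659 on the minus strand, Gsx2 at chr5:75075601-75077893 on the plus strand and Nkx2-1 at chr12:56531958-56536908 on the minus strand. Antisense transcripts run through several of these loci. Dlx1as shares 335 exonic bases with Dlx1, whereas Dlx6os1 shares 0 exonic bases with Dlx6, although the short Dlx6os2 shares 104. The libraries were made with a stranded kit but the strand setting of the counting is not given, so counts of Dlx1 and Dlx6 are uncertain by the reads of such partners.

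RefSeq promoter windows (GRCm38.p6) were found for 8 of the 10 genes. The 250 bases upstream of the start are shown for 4 regulators whose window overlaps no annotated exon, read 5′ to 3′ in the direction of the gene, because they cover a Dlx gene, a Lhx gene and the patterning genes above them. Capitals mark the Y-box letters CTGATTGG or their core ATTGG, searched on both strands.
Dlx2, chr2:71546755-71547004, minus strand: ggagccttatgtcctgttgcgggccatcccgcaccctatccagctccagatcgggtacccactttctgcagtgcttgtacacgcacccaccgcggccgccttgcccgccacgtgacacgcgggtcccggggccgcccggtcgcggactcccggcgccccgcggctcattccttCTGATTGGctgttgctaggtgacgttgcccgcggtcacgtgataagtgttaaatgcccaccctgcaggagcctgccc
Lhx6, chr2:36105409-36105658, minus strand: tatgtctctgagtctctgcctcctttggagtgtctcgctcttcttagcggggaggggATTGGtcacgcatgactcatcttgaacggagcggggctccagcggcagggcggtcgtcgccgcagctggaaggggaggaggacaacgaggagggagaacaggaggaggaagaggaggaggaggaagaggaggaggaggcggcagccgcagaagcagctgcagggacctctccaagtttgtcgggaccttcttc
Gsx2, chr5:75075351-75075600, plus strand: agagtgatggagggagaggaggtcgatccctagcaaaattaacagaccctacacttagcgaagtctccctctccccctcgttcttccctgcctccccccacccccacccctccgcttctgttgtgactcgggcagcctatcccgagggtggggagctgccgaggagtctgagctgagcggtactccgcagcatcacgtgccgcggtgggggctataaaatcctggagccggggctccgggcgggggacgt
Nkx2-1, chr12:56536909-56537158, minus strand: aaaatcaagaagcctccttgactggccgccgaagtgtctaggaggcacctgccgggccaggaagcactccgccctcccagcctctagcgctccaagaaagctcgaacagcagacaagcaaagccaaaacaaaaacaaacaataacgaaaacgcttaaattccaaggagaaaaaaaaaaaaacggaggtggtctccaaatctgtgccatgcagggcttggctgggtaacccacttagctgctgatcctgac
The Y-box letters begin 77 bases before the start of Dlx2 and are in no other window of the 8 genes, while 3.83% of all 32851 promoter windows of the same length hold them. The core ATTGG, part of the Y-box, is in windows of 3 of the 8 genes (Dlx2, Lhx6 and Gad2) and in 33.9% of all windows. Lhx6 has more windows than that shown, and a gene counted where any of its windows held the core. The count of genes and the share of windows are thus not strictly alike. A further motif, the homeodomain core TAATTA, is in none of the 8 genes' windows and in 4.84% of all windows. A match of letters describes the sequence only.

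The libraries differed in depth and in make-up. Controls held between 20841990 and 23883542 counts on genes, and Ybx1-KO libraries between 4743279 (F) and 13321952 (E). In library F only 7.22% of read pairs were counted on genes, against 18.0% to 24.7% in the other libraries. Ybx1 itself was checked first, in CPM, counts scaled to a common library size. Its level was 238 CPM in A, 531 in B and 306 in C, and 126 in D, 55.4 in E and 9.66 in F, without overlap of the groups (two-sided exact permutation p = 0.1, the smallest that 3 against 3 allows). The Ybx1-KO libraries thus kept reads of Ybx1, most of all library D, and the log2 fold change of -2.49 ± 0.68 had an edgeR adjusted p of 0.301. TMM-normalized library sizes were used for CPM throughout. All 10 progenitor markers, Sox2 among them, had counts in all 6 libraries. Pan-neuronal markers summed to between 1545 CPM (F) and 5723 CPM (B), so the sorted RNA also held transcripts of neurons.

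In edgeR's quasi-likelihood test, none of the 10 genes passed an adjusted p of 0.05 and a fold change of 1.5. The same held for the whole table, where 0% of the 21329 genes were called in this test, although 2393 had an unadjusted p below 0.05. limma-voom called 0 genes and DESeq2 called 214, none of them among the 10. The paper, which used voom with the same thresholds, reports both upregulated and downregulated genes. The fitted log2 fold change (Ybx1-KO minus control) was negative for 9 of the 10 genes, with a median of -0.94, beside a median of 0.31 over all genes tested. Those 9 values ran from -0.28 for Dlx6 to -3.21 for Lhx6, and Gsx2 stood at 0.18. Over all 21329 genes, 8256 fold changes were negative and 13073 positive. An unadjusted p below 0.05 with a negative fold change was reached by 3 of the 10 (Dlx1, Lhx6 and Lhx8) and by 4.26% of all genes. In TMM-normalized CPM, all Ybx1-KO libraries lay below all controls for 1 of the 10 (Gad1), where 8.15% of all genes did so. For 8 of the 10 genes, at least 1 Ybx1-KO library lay above control B. Pan-neuronal markers leaned the same way, with 8 of 10 fold changes negative, 2 positive and a median of -0.44. All Ybx1-KO libraries lay below all controls for 2 of these 10 markers.

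**Figure D1:**
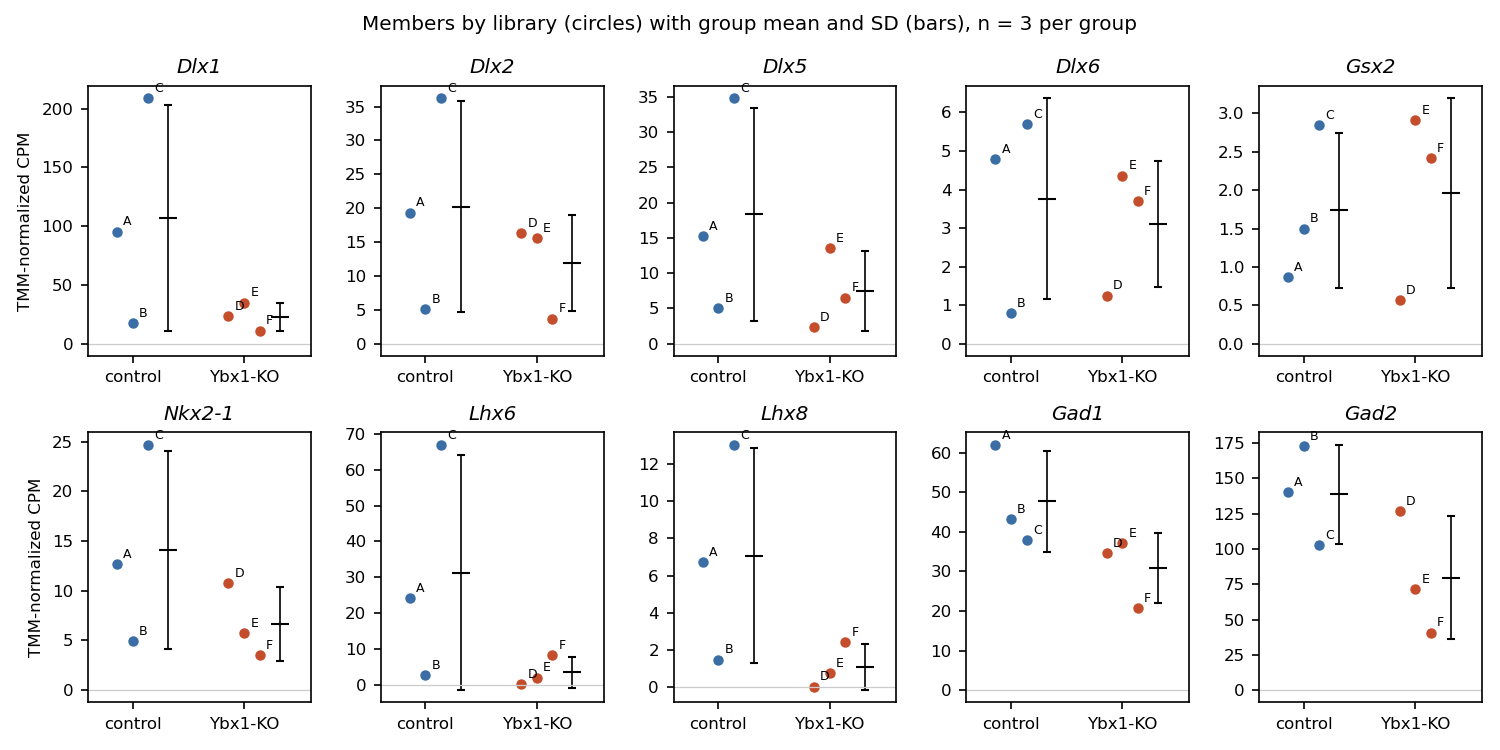
TMM-normalized CPM of the 10 genes in each library, with the axis of each panel starting at or just below 0; circles are libraries A to F and bars show the group mean with SD (n = 3). Control C was the highest of all 6 libraries for 7 genes and control B the lowest control for the same 7, while the groups of 9 genes overlapped.

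Dlx1 was the most variable of the Dlx genes in absolute level. It stood at 95.3, 17.4 and 209 CPM in A, B and C, the controls, and at 23.1, 34.9 and 11.1 CPM in D, E and F, the Ybx1-KO libraries. Controls A and C were thus above all Ybx1-KO libraries, whereas control B lay below D and E. The mean was 107 ± 96.3 CPM (SD, n = 3) in controls and 23.0 ± 11.9 CPM in Ybx1-KO, and the log2 fold change was -2.21 ± 0.65 (SE), with an adjusted p of 0.359 in edgeR. Dlx2, which is transcribed towards Dlx1, had 19.3, 5.10 and 36.2 CPM in controls and 16.3, 15.6 and 3.70 CPM in Ybx1-KO. Libraries D and E lay between controls A and B for Dlx2, and the log2 fold change was -0.76 ± 0.63, with an edgeR adjusted p of 0.570. Reads of Dlx1 per read of Dlx2 were 4.93, 3.40 and 5.76 in controls and 1.42, 2.24 and 3.00 in Ybx1-KO. All 3 controls were above all 3 Ybx1-KO libraries in this ratio, which was looked at after the values were seen and was not tested. In F the ratio rests on 26 counts of Dlx2.

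For Dlx5 the controls stood at 15.2, 5.05 and 34.8 CPM, and the Ybx1-KO libraries at 2.38, 13.6 and 6.54 CPM. Control B was again below E and F. The log2 fold change was -1.29 ± 0.67, with an edgeR adjusted p of 0.450. Dlx6 was lower throughout, at 4.80, 0.796 and 5.69 CPM in controls and 1.25, 4.36 and 3.70 CPM in Ybx1-KO, and control B was the lowest of the 6 libraries. Its log2 fold change of -0.28 ± 1.00 had an edgeR adjusted p of 0.912, and its sign was not stable to the choice of libraries. Reads of Dlx5 per read of Dlx6 were 3.17, 6.35 and 6.12 in controls and 1.91, 3.12 and 1.77 in Ybx1-KO, a ratio also looked at after the values were seen. The highest Ybx1-KO value lay just under the lowest control. Dlx6 had 17 counts in B, 11 in D and 26 in F, so the ratio is uncertain there.

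The antisense transcripts of the Dlx loci were likewise low in control B and high in controls A and C. Dlx6os1, a long noncoding RNA also known as Evf2, stood at 76.0, 7.07 and 65.0 CPM in controls and 5.10, 8.31 and 2.42 CPM in Ybx1-KO. Its log2 fold change of -3.21 ± 0.69 was the most extreme of the Dlx loci relative to its error, with an unadjusted p of 0.000228 in edgeR (adjusted p = 0.177). DESeq2 gave it an adjusted p of 0.00657. Control B was below Ybx1-KO E. Per read of Dlx6 there were 15.9, 8.88 and 11.4 reads of Dlx6os1 in controls and 4.09, 1.91 and 0.654 in Ybx1-KO, so the groups did not overlap in this untested ratio. In F it rests on 17 counts of Dlx6os1 and 26 of Dlx6, and its denominator is also that of the Dlx5 ratio. Dlx1as was at 19.4, 4.63 and 29.9 CPM in controls and 2.27, 8.41 and 4.55 CPM in Ybx1-KO, with a log2 fold change of -1.82 ± 0.65 and an edgeR adjusted p of 0.425. Reads of Dlx1as per read of Dlx1 ranged from 0.143 to 0.267 in controls and from 0.0980 to 0.410 in Ybx1-KO, and thus overlapped.

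**Figure D2:**
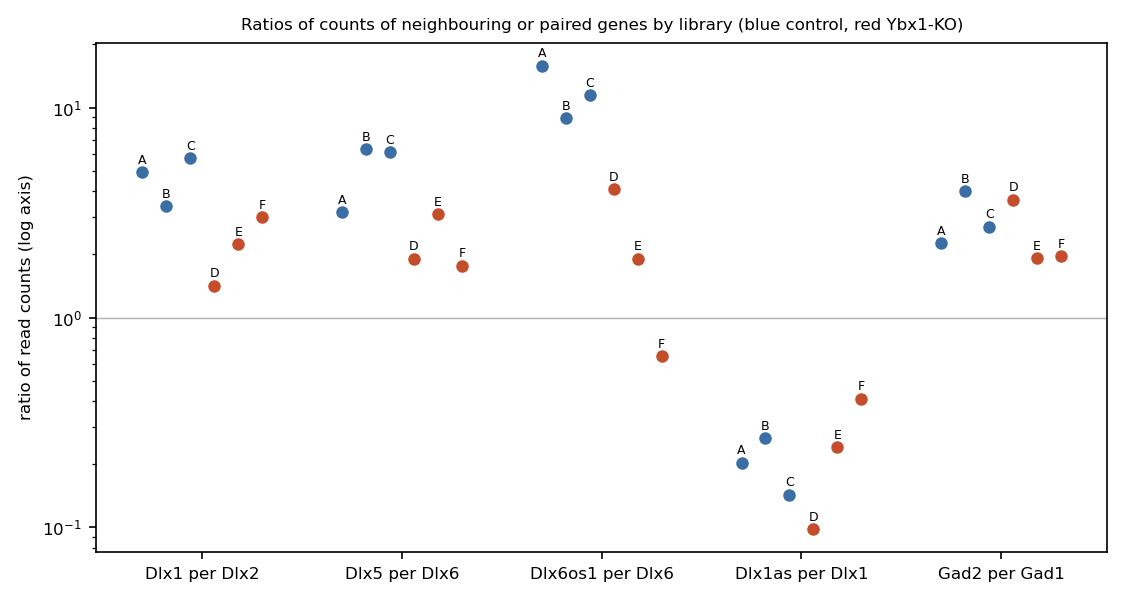
Ratio of read counts (log axis) in each library for gene pairs at the Dlx loci and for Gad2 per Gad1, with controls in blue and Ybx1-KO libraries in red; each circle is 1 library. Dlx1 per Dlx2, Dlx5 per Dlx6 and Dlx6os1 per Dlx6 are higher in all controls than in all Ybx1-KO libraries, whereas Dlx1as per Dlx1 and Gad2 per Gad1 overlap. How often ratios of other gene pairs separate the groups was not computed. The ratios of Dlx5 and of Dlx6os1 share Dlx6 as denominator and are not separate observations. Some denominators are small: Dlx6 had 17 counts in B, 11 in D and 26 in F, and Dlx2 had 26 in F.

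Gsx2, a marker of lateral eminence progenitors, had few counts in every library. It had 18, 32 and 56 counts in controls and 5, 28 and 17 counts in Ybx1-KO, or 0.863, 1.5 and 2.85 CPM against 0.567, 2.91 and 2.42 CPM. The highest value was in Ybx1-KO E and the lowest in Ybx1-KO D, and the log2 fold change of 0.18 ± 1.32 had an edgeR adjusted p of 0.962. Nkx2-1 stood at 12.7, 4.96 and 24.7 CPM in controls and 10.8, 5.71 and 3.55 CPM in Ybx1-KO. Libraries D and E were thus above control B, and the log2 fold change was -1.07 ± 0.62, with an edgeR adjusted p of 0.460. Nkx2-1 is also a gene of the hypothalamus, so its reads need not all come from the telencephalon.

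Among genes with a count in every library, Lhx6 spanned the widest range of the 10. In controls it had 502, 57 and 1318 counts (24.1, 2.67 and 67.0 CPM), and in Ybx1-KO libraries it had 1, 19 and 58 counts (0.113, 1.97 and 8.24 CPM). Control B was between Ybx1-KO E and F. The log2 fold change was -3.21 ± 1.00, with an edgeR unadjusted p of 0.00542 (adjusted p = 0.382). Lhx8 followed the same order, with 140, 31 and 257 counts in controls and 0, 7 and 17 counts in Ybx1-KO. These counts correspond to 6.72, 1.45 and 13.1 CPM and to 0, 0.727 and 2.42 CPM, and a count of 0 in library D allows a level of up to 0.340 CPM at a limit of 3 counts. Its log2 fold change of -2.77 ± 1.21 had an unadjusted p of 0.0350 in edgeR (adjusted p = 0.444). In Ybx1-KO D, reads of Lhx6 were 0.0105 per read of Nkx2-1, whereas the ratio ranged from 0.538 to 2.71 in controls and was 0.346 in E and 2.32 in F.

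Of the 10 genes, the enzymes Gad1 and Gad2 varied least between libraries. Gad1 stood at 62.0, 43.2 and 37.9 CPM in controls and 34.7, 37.2 and 20.8 CPM in Ybx1-KO. In CPM it was the sole gene of the 10 with no overlap between groups. The lowest control and the highest Ybx1-KO library were close, and the log2 fold change was -0.63 ± 0.39, with an edgeR adjusted p of 0.477 and an exact permutation p of 0.1. In FPKM, which uses library totals without TMM, Ybx1-KO D (4.72) lay above control C (4.53), so the groups overlapped. Gad2 was at 140, 173 and 103 CPM in controls and 127, 71.6 and 40.8 CPM in Ybx1-KO, and Ybx1-KO D was above control C. Its log2 fold change was -0.80 ± 0.45, with an edgeR adjusted p of 0.455. In contrast to the Dlx and Lhx genes, control B was the highest of all libraries for Gad2. The highest control exceeded the lowest by 1.64 times for Gad1 and 1.68 times for Gad2, but by 4.98 times for Nkx2-1, 12 times for Dlx1 and 25.1 times for Lhx6. Reads of Gad2 per read of Gad1 were 2.26, 4.01 and 2.71 in controls and 3.65, 1.93 and 1.97 in Ybx1-KO.

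The order of the genes differed between the groups on a scale per length. In FPKM, which divides counts by exon length and library total, Gad2 had the highest mean in both groups, at 22.0 ± 5.42 (SD, n = 3) in controls and 13.8 ± 7.46 in Ybx1-KO. In controls Dlx1 followed at 18.6 ± 16.2, then Dlx5 at 7.58 ± 6.06, Dlx2 at 6.65 ± 4.99, Lhx6 at 6.07 ± 6.18, Gad1 at 5.90 ± 1.94 and Nkx2-1 at 4.65 ± 3.19. The lowest control means were those of Lhx8 (2.62 ± 2.10), Dlx6 (1.5 ± 1.04) and Gsx2 (0.961 ± 0.537). No neighbours in this order differed by more than the larger of their SDs. In Ybx1-KO, Gad1 (4.09 ± 0.604) came next to Gad2, ahead of Dlx1 (4.06 ± 0.883), Dlx2 (3.94 ± 2.01), Dlx5 (3.24 ± 1.86) and Nkx2-1 (2.42 ± 1.34). Dlx6 (1.39 ± 0.883), Gsx2 (1.26 ± 0.899), Lhx6 (0.955 ± 1.38) and Lhx8 (0.541 ± 0.764) closed the order, and Gad2 and Gad1 were the sole neighbours that differed by more than the larger SD.

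The outcome for 3 genes turned on which libraries were in the fit. Without control B, Dlx1 had a log2 fold change of -2.71 (edgeR adjusted p = 0.0149) and Lhx6 of -3.74 (adjusted p = 0.0334), and both were called. Without Ybx1-KO D, Dlx1 (adjusted p = 0.00287) and Lhx6 (adjusted p = 2.01e-05) were called, but neither was when the genes tested were kept as in the full comparison (adjusted p = 0.120 and 0.110). Without Ybx1-KO E, Dlx1 (adjusted p = 1.38e-05), Lhx6 (6.15e-05) and Dlx5 (log2 fold change -1.92, 0.0468) were called by edgeR. With the tested genes kept, only Dlx1 and Lhx6 were called without E (adjusted p = 0.0146 and 0.0499), and Dlx5 was not (0.0893). Leaving out Ybx1-KO F took Lhx6 to -4.90, with an adjusted p of 0.264, or of 0.0477 when the genes tested were kept. With control B and Ybx1-KO F both left out, Dlx1 (-2.42, adjusted p = 0.0375) and Lhx6 (-5.45, adjusted p = 0.00704) were called. Leaving out control C moved Dlx1 to -1.28, Dlx2 to -0.03, Dlx5 to -0.42, Nkx2-1 to -0.39, and Lhx6 and Lhx8 both to -1.96, and no gene was called without A or without C. Gad1, Gad2, Nkx2-1, Dlx2, Dlx6, Gsx2 and Lhx8 were called in none of these fits. Over the whole table, edgeR called 73 of 21507 genes without B, 696 of 24300 without D and 946 of 24345 without E. Without B and F it called 116 of 15446. With the 21329 tested genes kept, it called 71 without B, 107 without D, 420 without E and 46 without F.

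**Figure D3:**
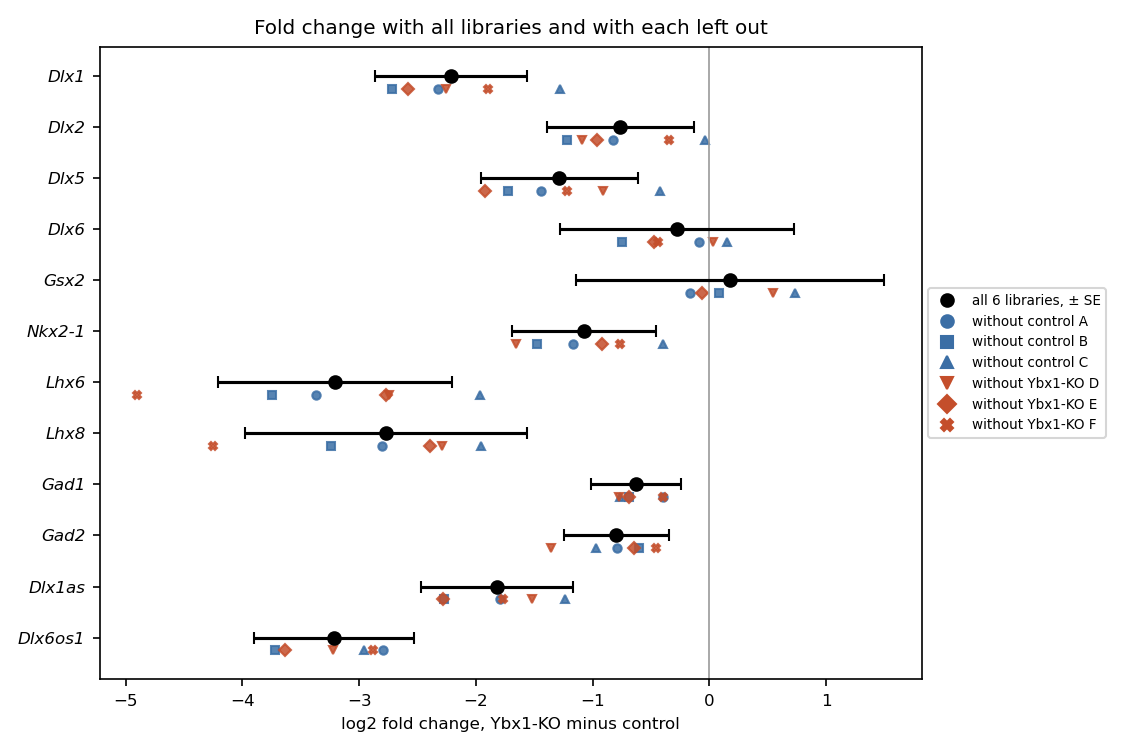
Log2 fold change (Ybx1-KO minus control) of the 10 genes and the antisense genes Dlx1as and Dlx6os1; black circles with bars are the edgeR estimate with its SE over all 6 libraries, and coloured symbols are the estimates with 1 library left out. Estimates without control C lie to the right for most Dlx and Lhx genes, those of Lhx6 and Lhx8 without Ybx1-KO F lie far to the left (-4.90 and -4.25), and those of Gad1 stay closest together (-0.77 to -0.39).

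Markers of brain regions differed between libraries along with these genes, and their part in the result was not tested. The 10 markers of the dorsal telencephalon summed to 1207, 257 and 1326 CPM in controls and to 315, 318 and 153 CPM in Ybx1-KO. Of these, 8 of 10 had negative fold changes, with 5 at an unadjusted p below 0.05 and a median of -2.60. Over all 21329 genes, 8256 had negative fold changes, and 4.26% reached that p in that direction. Neurod6, a gene of cortical projection neurons, stood at 498, 16.3 and 351 CPM in controls and at 21.3, 3.53 and 4.69 CPM in Ybx1-KO (log2 fold change -4.87 ± 0.96, edgeR adjusted p = 0.167). Neurod2, of the same neurons, stood at 200, 19.6 and 259 CPM and at 8.50, 22.5 and 5.54 CPM. The 6 markers of choroid plexus and epithelium, Ttr among them, summed to 718, 48.8 and 963 CPM in controls and to between 55.4 and 73.8 CPM in Ybx1-KO. Only 4 of these 6 were tested, 2 with positive and 2 with negative fold changes, and their median was 0.26. The lowest log2 fold change was -3.76, and 1 gene had an unadjusted edgeR p below 0.05, lower in Ybx1-KO. The sums thus do not show a fall of every marker.

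The Hox genes, which mark hindbrain and spinal cord, had the opposite order. The 12 Hox markers summed to 54.5, 435 and 114 CPM in controls and to 571, 564 and 242 CPM in Ybx1-KO. Of the 12, 11 had positive fold changes, as had 13073 of all 21329 genes. Of these 11, 6 had an unadjusted p below 0.05, which 6.96% of all genes reached in that direction. Hoxb2 was at 3.17, 14.2 and 3.00 CPM in controls and at 59.6, 36.1 and 24.9 CPM in Ybx1-KO, without overlap of the groups (log2 fold change 2.56 ± 0.58, edgeR adjusted p = 0.208). All Ybx1-KO libraries lay above all controls for 1 of the 12 and for 4.99% of all genes. None of the Hox or dorsal telencephalic markers passed the adjusted threshold in edgeR with all 6 libraries and the filter. DESeq2 on the same libraries gave Neurod2 an adjusted p of 0.000392, Neurod6 of 0.0259 and Hoxb2 of 0.0106, and edgeR with no filter gave 5.24e-07, 1.98e-09 and 0.00155.

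**Figure D4:**
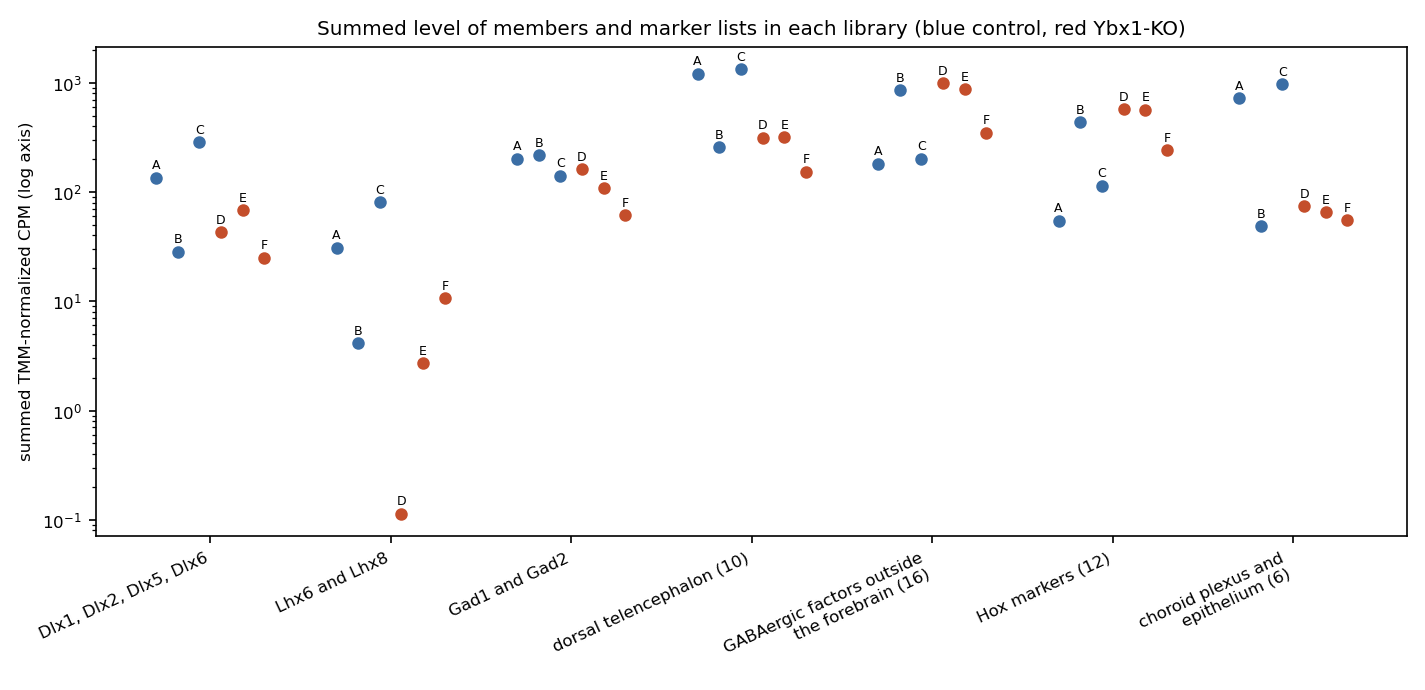
Summed TMM-normalized CPM (log axis) in each library for subsets of the 10 genes and for marker lists, with the number of genes of a list in brackets; controls are blue, Ybx1-KO libraries red. Control B sits with the Ybx1-KO libraries for the Dlx genes, the Lhx genes, the dorsal markers, the choroid plexus markers and the Hox markers, whereas Gad1 and Gad2 lie between 61.5 and 216 CPM in all libraries.

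Inhibitory neurons outside the forebrain use Gad1 and Gad2 but other transcription factors. The 16 factors of this kind, such as Pax2, Lhx5, Gata2 and Tal1 of midbrain, hindbrain and spinal cord, summed to 181, 850 and 201 CPM in controls and to 986, 867 and 348 CPM in Ybx1-KO. All 16 fold changes were positive, with a median of 0.96 and no call, and 13073 of all 21329 genes were also positive. An unadjusted p below 0.05 was reached by 4 of the 16 and, in that direction, by 6.96% of all genes. Gata2 stood at 11.8, 21 and 8.23 CPM in controls and at 79.3, 39.1 and 17.1 CPM in Ybx1-KO (log2 fold change 1.72 ± 0.52, edgeR adjusted p = 0.362). Pax5 was at 7.44, 62.9 and 6.86 CPM in controls and at 135, 52.6 and 54.3 CPM in Ybx1-KO. Control B was thus far above A and C for Pax5, and it was the control with the highest Gad2. Gad1 and Gad2 together summed to 202, 216 and 141 CPM in controls and to 161, 109 and 61.5 CPM in Ybx1-KO, while Dlx1, Dlx2, Dlx5 and Dlx6 summed to 135, 28.3 and 286 CPM and to 43.1, 68.4 and 25 CPM. Reads of Dlx1 per read of Gad2 were 0.681, 0.1 and 2.03 in controls and 0.183, 0.488 and 0.272 in Ybx1-KO, and control B had the lowest ratio.

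Further lists of ventral telencephalic genes were mixed in direction. Of 20 other regulators of the ganglionic eminences, 19 were tested, 12 had positive and 7 negative fold changes, and the median was 0.09. That share of positive values was close to the share over all genes, 13073 of 21329, whose median was 0.31. Six3 was at 6.48, 11.7 and 19.4 CPM in controls and at 56.4, 32.4 and 12.4 CPM in Ybx1-KO (log2 fold change 1.43 ± 0.53, edgeR adjusted p = 0.432). The paper reports Six3 as downregulated in Ybx1-KO, by RNA-seq and by RT-qPCR of brain NPCs, whereas the fold change here was positive. Nkx6-2, also a gene of the ventral spinal cord, was at 2.40, 6.46 and 1.93 CPM and at 14.9, 9.66 and 7.25 CPM, without overlap. Its log2 fold change was 1.56 ± 0.66, with an edgeR adjusted p of 0.444. All Ybx1-KO libraries lay above all controls for 1 of the 19 regulators tested and for 4.99% of all genes. Many of these regulators are used in other regions of the neural tube as well. Among 16 genes of migrating cortical interneurons, 6 had positive and 10 negative fold changes, and the median was -0.70. An unadjusted p below 0.05 was reached by 2 and 3 of them, and over all genes by 6.96% and 4.26% in these directions. All Ybx1-KO libraries were below all controls for 6 of the 16, against the 8.15% of all genes given above. Zeb2, which directs interneurons to the cortex and is also widely expressed, was at 329, 217 and 200 CPM in controls and at 112, 166 and 101 CPM in Ybx1-KO (log2 fold change -0.98 ± 0.43, edgeR adjusted p = 0.444). Sst, which encodes the peptide somatostatin, had a positive fold change of 1.89 ± 0.61 on the log2 scale. It was at 13.6, 21.2 and 72.3 CPM in controls and 248, 81.9 and 66.6 CPM in Ybx1-KO, and F lay below control C. Its highest level was in library D, where Lhx6 had 1 count and Lhx8 had 0. Which cells the Sst reads came from was not tested.

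Of the 6 other genes of GABA handling, 5 were tested, with 2 positive and 3 negative fold changes and a median of -0.18. The transporter gene Slc6a11 (GAT3) stood at 28.2, 7.77 and 27.0 CPM in controls and at 0.227, 3.74 and 6.54 CPM in Ybx1-KO. In CPM the groups did not overlap (log2 fold change -2.59 ± 0.77, edgeR adjusted p = 0.359). All Ybx1-KO libraries lay below all controls for 1 of the 5 tested and for 8.15% of all genes. In FPKM, without TMM, Ybx1-KO F (1.92) lay above control B (1.38). The cholinergic genes, which Lhx8 is known to control in the basal forebrain, had positive fold changes in all 4 tested of 5. Their median was 1.52, and 13073 of all 21329 genes were also positive. Slc18a3, the vesicular acetylcholine transporter, was at 0.192, 3.46 and 0.610 CPM in controls and at 2.50, 11.1 and 14.4 CPM in Ybx1-KO, and control B lay above Ybx1-KO D. Motor neurons of the hindbrain and spinal cord use the same cholinergic genes. Of 8 markers of hypothalamus and preoptic area, 6 were tested, 5 with positive fold changes, and they summed to 14, 111 and 33.7 CPM in controls and to 138, 113 and 55.0 CPM in Ybx1-KO. Nkx2-2 was at 2.78, 9.41 and 4.01 CPM in controls and at 19.6, 19.8 and 7.53 CPM in Ybx1-KO, and is also a gene of the ventral spinal cord. Dlx genes are also expressed in facial mesenchyme, whose 13 markers summed to 436, 123 and 163 CPM in controls and to between 108 and 147 CPM in Ybx1-KO, with 8 tested and 4 in each direction. The 8 erythroid markers summed to between 480 and 1170 CPM in controls and to between 164 and 953 CPM in Ybx1-KO.

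Library F bore on how low levels could be read. Among protein-coding genes with at most 5 counts summed over the other 5 libraries, 4691 genes in all, 72.7% had a count in F, with a median of 2.45 counts per kb of exon and a 90th percentile of 14.4 counts per kb. Of the 10 genes, 6 lay below that 90th percentile in F: Dlx2, Dlx6, Gsx2, Nkx2-1, Lhx6 and Lhx8. Lhx6, with 12.1 counts per kb, stood above 87.4% of those genes in F, and Lhx8, with 6.71 counts per kb, above 73.3% of them, and F was the highest Ybx1-KO library for both. Dlx1 was just above it at 14.5 counts per kb, and Gad1 (19.1), Dlx5 (20.3) and Gad2 (48.8) were above. This comparison was made after the values were seen. The ratios above per read of Dlx2 or Dlx6 have, in F, denominators below that 90th percentile.

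**Figure D5:**
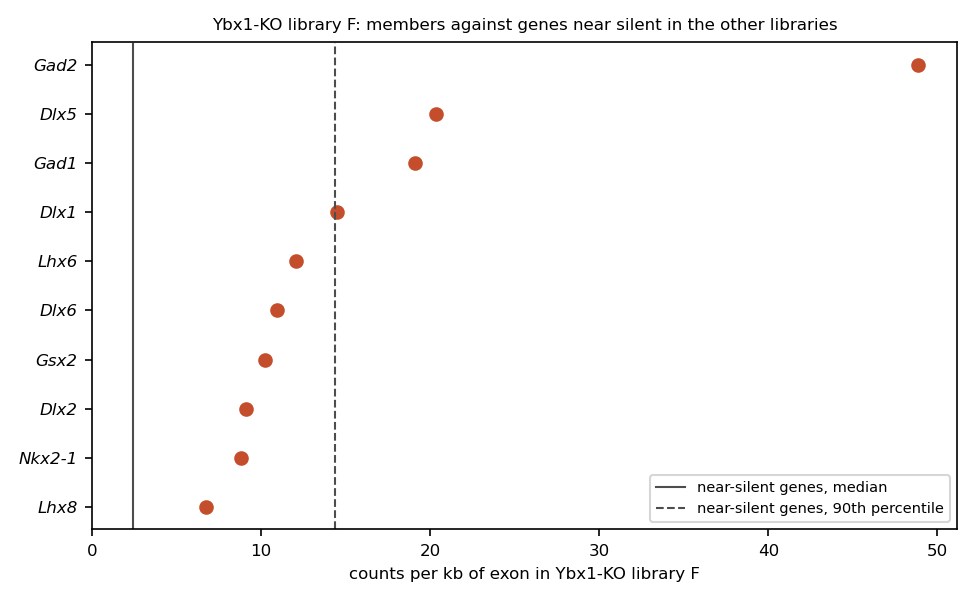
Counts per kb of exon of the 10 genes in Ybx1-KO library F (circles), with the median (solid line) and the 90th percentile (dashed line) of 4691 protein-coding genes with at most 5 counts summed over the other libraries. Only Gad2, Dlx5, Gad1 and Dlx1 lie above the dashed line.

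Protein-coding genes outside the lists whose log2(CPM + 1) was most like the mean of Dlx1, Dlx2, Dlx5 and Dlx6 over the 6 libraries were Txndc15, Mrpl41, Penk, Nagk, Rpl6, Htr3a, Ubxn11 and Rpl10, with Pearson's r from 0.993 for Txndc15 to 0.962 for Rpl10. Of 13554 genes compared, 76 (0.561%) had an r above 0.9, and all points share the depth and make-up of the same 6 libraries. Penk, which encodes proenkephalin, stood at 6.76, 2.90 and 9.25 CPM in controls and at 3.52, 6.85 and 2.84 CPM in Ybx1-KO. Htr3a, which encodes a serotonin receptor subunit, stood at 2.88, 1.12 and 4.17 CPM and at 0.794, 1.77 and 0.711 CPM. Both had their highest level in control C.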

How the data were processed

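Per the labels, total RNA of sorted NPCs was sequenced as 100-cycle read pairs. The authors deposited raw read counts per gene symbol, made with HTSeq 0.6.1p1 on a GENCODE annotation, 1 table per library and without normalization or pooling; GRCm38.p5 and mm10 are listed in the submitters' processing notes, and the aligner and strand setting are not given in the sources used here. Here, genes entered the test where either group had a mean FPKM above 1 (union of exons, GENCODE M21), and were tested in R 4.3.3 with edgeR 4.0.16 (TMM, quasi-likelihood, Benjamini-Hochberg adjustment over all genes tested) and called where the adjusted p was below 0.05 and the fold change exceeded 1.5. Alternatives were limma-voom (limma 3.58.1), the method of the study, and DESeq2 1.42.0. The test was also run on simulated data. Of 51733 symbols, 47624 matched the annotation by symbol and 365 by an older symbol. The 5 tallies of reads outside genes stayed out of library sizes. Groups came from the genotype labels. Depth ran from 4743279 to 23883542 counts, so 3 counts stood for 0.140 to 0.426 CPM, limits that cover counting error only. The genes and marker lists were chosen with earlier results of these data known. Named were the 10 genes, Ybx1, the antisense genes of the Dlx loci, at most 2 genes of smallest p in the main lists, and the 8 genes most like the Dlx genes; some genes of the lists are not reported here. Titles of A and B begin with a common number, as those of D and E do, but all libraries were treated as independent. No such number is shared between control and Ybx1-KO libraries, and what it stands for is not stated.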

Additional observations from a re-analysis of the deposited data

How the results depend on the processing

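With edgeR on all 6 libraries, 0 genes were called, and other scalings, limma-voom, stricter filters, robust dispersion and protein-coding genes alone also called 0. DESeq2 called 214 genes, no filter 193, adding libraries that share a first title number 206, and leaving out control B and Ybx1-KO F (chosen after seeing the data) 116. Leaving out 1 library gave between 0 and 946 calls. Of the 10 genes, 2 (Dlx1 and Lhx6) were called with no filter, with titles added together and without B and F, and 0 to 3 when 1 library was left out. The cause was not tested. Their median log2 fold change of -0.94 stayed between -1.45 and -0.59 in all fits. Total-count scaling took the median of all genes from 0.31 to 0.54 and that of the 10 genes to -0.84. Without Ybx1-KO F, with the filter redone, the median of all genes was 0.013.

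Signs turned for Dlx6, at 0.0040 with limma-voom, 0.15 without control C, 0.03 without Ybx1-KO D (leaving out 1 library gave -0.76 to 0.15) and, with the tested genes kept, 0.15 and 0.10. Gsx2 turned to -0.16 without control A (range -0.22 to 0.73), -0.06 without Ybx1-KO E, -0.054 with titles added and -0.12 without B and F, and with the tested genes kept to -0.16, -0.22 and, without F, -0.04; without F and with the filter redone it was not tested. Of 249 values for the 10 genes under alternatives, 219 kept sign and side of the threshold, 18 passed the threshold and 12 changed sign. No paired analysis was made because no label pairs a control library with a Ybx1-KO library.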
